A study of Mus musculus with 82 samples.

Results

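The EGFR ligands described here are the 7 genes whose products bind the epidermal growth factor receptor (EGFR): Hbegf, Areg, Ereg, Tgfa, Btc, Egf and Epgn. They were taken by name, with no threshold on a measured value, although earlier results of these data were known when the set was proposed, and they are 7 of the 55401 genes in the count tables. RNA was sequenced from 82 cultures of aortic vascular smooth muscle cells (aVSMC) grown out from C57BL/6 mice. At 24 h there were 7 groups of 6 cultures each, namely control, EGF (10 µg/L), AngII (angiotensin II, 10 nM), U46619 (1 µM), EGF+AngII, EGF+U46619 and all 3 substances together, and each of 6 mice gave 1 culture to every group. At 48 h there were 6 groups in 2 batches. The EGF/U46619 batch held 5 culture sets of control, EGF, U46619 and EGF+U46619, and the EGF/AngII batch held 5 culture sets of control, EGF, AngII and EGF+AngII, which gave 10 control cultures, 10 EGF cultures and 5 cultures of every other group. The labels give 5 mice for these 10 sets (4 in the first batch and 3 in the second, with mouse 7 in 5 sets), whereas the methods describe a different mouse for each replicate, so counts over 48 h sets may include sets of the same mouse. All groups shared the strain, a medium free of serum and supplements for 24 h before the substances were added, and a growth medium that itself contains EGF during earlier passages. The cells are primary cultures that were passaged before use, so each culture is a population as it grew out of an aorta and not a clone. The paper states that the smooth muscle purity reached with its protocol had been tested in earlier work.

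Each EGFR ligand is made as a membrane protein with an EGF-like module outside the cell. Proteases of the ADAM family cut the module free, and the released ligand binds EGFR on the same or a neighbouring cell. Hbegf encodes heparin-binding EGF-like growth factor, a mitogen of smooth muscle cells that is best known in this tissue as the ligand released when G protein-coupled receptors such as the angiotensin II and thromboxane receptors transactivate EGFR. Ereg encodes epiregulin, which was also described as an autocrine growth factor of vascular smooth muscle. Areg (amphiregulin), Tgfa (transforming growth factor alpha), Btc (betacellulin), Egf (EGF itself) and Epgn (epigen) are better known from epithelia. U46619 is a stable thromboxane mimetic that activates the TP receptor. In this text Egf is the mouse gene and EGF is the protein added to the medium. Transcript levels say nothing of how much ligand was released.

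Of the 7 ligand genes, 4 lie side by side on mouse chromosome 5 in the mm10 build, in the order Epgn (91027464 to 91035215, + strand), Ereg (91074622 to 91093646, + strand), Areg (91139599 to 91148432, + strand) and Btc (91357261 to 91402994, − strand). This cluster spans 375.5 kb. Tgfa lies on chromosome 6 (86195223 to 86275719, + strand) and Egf on chromosome 3 (129677565 to 129755316, − strand).

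In the RefSeq promoter table of build GRCm38.p6, which holds 250 bases before and 50 bases after each start site, 5 of the 7 members had an entry, namely Areg, Btc, Egf, Epgn and Tgfa. Ereg and Hbegf had none. These windows were searched on both strands for TGANTCA (AP-1), TGACGTCA (CRE) and GGAATG (TEAD), and the CRE letters do not contain the AP-1 letters. Only the Areg window held one of them, a CRE 61 bases before the start site. Of all 32851 promoter windows of the same length, 1.79% held this CRE, 7.81% held the AP-1 letters and 14.7% held the TEAD letters. The 140 bases of the Areg window just before the start site are shown because they hold that match, at chr5:91139459-91139598 on the + strand, with the CRE in capitals.
Areg: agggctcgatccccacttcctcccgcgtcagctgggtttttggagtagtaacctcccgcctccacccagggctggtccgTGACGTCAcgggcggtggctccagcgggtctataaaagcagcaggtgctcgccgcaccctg

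Hbegf, the smooth muscle mitogen, lies apart from the cluster on chromosome 18 (36504927 to 36515805, − strand). Its mean level was the highest of the ligands in untreated aVSMC, and it was the highest ligand in 4 of 6 controls at 24 h (Ereg in mouse 2 and Tgfa in mouse 1) and in 10 of 10 at 48 h. Levels are given in FPM, the count of a gene relative to the TMM-scaled library size and expressed per 1000000 counts, and they were divided by exon length wherever genes are set against each other. In the 6 control cultures of 24 h, the mean level per kb was 6.77 ± 5.89 FPM (SD) for Hbegf, 3.00 ± 2.42 for Ereg and 2.06 ± 1.21 for Tgfa. Hbegf was above Ereg in 5 of 6 mice and Ereg above Tgfa in 4 of 6, so the order of these neighbours did not hold in every mouse. Btc followed with 0.434 ± 0.363 FPM per kb. Areg (0.115), Egf (0.106) and Epgn (0.0225) were the lowest per kb. Areg and Epgn were close to the limit of detection, with 0 to 9 and 0 to 3 counts per control culture. Egf, with 11275 exon bases, had 11 to 41 counts. In the 10 controls of 48 h, Hbegf (13.7 ± 6.6 FPM per kb) was above Ereg (4.39) in 10 of 10 culture sets, and Ereg was above Tgfa (3.01) in 8 of 10. Btc (0.832), Areg (0.481 ± 1.01), Epgn (0.0654) and Egf (0.0616) were again the lowest, and without the 1 control with the highest level the Areg mean was 0.165 ± 0.165.

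**Figure D1:**
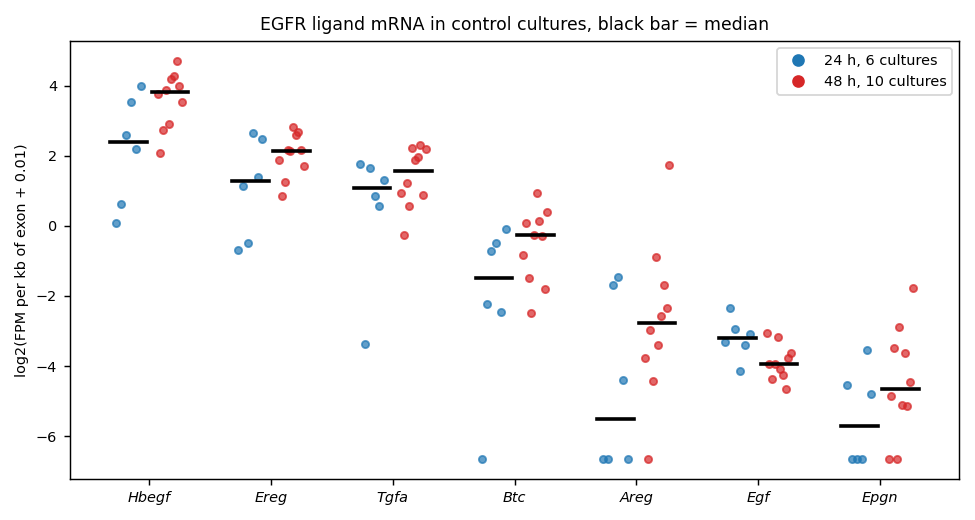
Level of the 7 EGFR ligands in control aVSMC of 24 h (6 cultures) and 48 h (10 cultures), as log2(FPM per kb of exon + 0.01) on the vertical axis. Points are cultures and black bars medians. Hbegf, Ereg and Tgfa had the highest medians at both times, and Areg, Egf and Epgn lay far below them.

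Totals per library ran from 16483529 to 20818809 counts at 24 h and from 19936925 to 33916114 at 48 h. All 7075 genes of chromosomes 9, X, Y and MT were listed at 0 in every library, so the sheddase Adam10, which lies on one of them, has no value here. Marker lists were set beside the label. Of 8 smooth muscle markers 6 had counts (Cnn1 and Tagln were among the genes listed at 0), and their summed level in the 24 h controls ran from 1255 to 5377 FPM. All 6 fibroblast markers had counts too (445 to 3079 FPM), as did 4 of 5 endothelial markers (4.37 to 1529 FPM, Cdh5 listed at 0) and 6 of 7 mesothelial and epithelial markers (0.419 to 1093 FPM). Smooth muscle markers, summed without Cnn1 and Tagln, did not lead in every set. In the 4 libraries of set 6 of the EGF/AngII batch the fibroblast sum (1878 to 2687 FPM) lay above the smooth muscle sum (338 to 631 FPM). In some other sets the ranges overlapped, as in set 5 of the EGF/U46619 batch (1388 to 2384.5 and 422 to 1771 FPM). In bulk RNA, fewer cells of a type and less RNA per cell cannot be told apart. One 48 h library stood apart, the control of set 4 of the EGF/AngII batch, whose deviations from the group means correlated with those of its own set at −0.454 to −0.208, against 0.859 to 0.935 among the other 3 libraries of that set. Values without it are given beside several 48 h results.

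U46619 for 24 h raised the transcripts of Hbegf and Ereg and lowered those of Tgfa and Egf. edgeR's quasi-likelihood test with mouse as block called 4 of the 6 ligands that passed the filter on low counts at an adjusted p under 0.05, where 33.7% of all 14653 tested genes were called. Higher were 2 of 6 ligands (15.1% of all genes) and lower were also 2 of 6 (18.6% of all genes). The median log2-fold change was 0.25 over the 6 ligands and −0.06 over all genes. Epgn had 0 to 7 counts per 24 h library and was not tested. All 24 h comparisons with control use the same 6 control cultures.

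Hbegf had 5.09 FPM in the lowest, 25.5 in the median and 77.3 in the highest control culture, and 22.1, 60.3 and 146 FPM with U46619. The groups overlapped because mice differed in their starting level, but in 6 of 6 mice the U46619 culture was above its own control. The within-mouse difference averaged 1.51 ± 0.86 (SD, n = 6) on the log2(FPM + 0.5) scale. It ranged from 0.58 in mouse 6, with the highest control, to 2.88 in mouse 2, where Hbegf went from 7.39 to 57.6 FPM. The log2-fold change of Hbegf in edgeR was 1.56 (SE 0.34, adjusted p = 0.000777). Without mouse as block the call was lost (1.20, adjusted p = 0.308).

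Ereg, the epiregulin gene of the chromosome 5 cluster, had 2.51 FPM in the lowest, 9.92 in the median and 25.9 in the highest control, and 9.42, 38.6 and 66.8 FPM with U46619. Here too the groups overlapped while the U46619 culture was higher in 6 of 6 mice, by 1.72 ± 0.67 on the log2(FPM + 0.5) scale. The log2-fold change was 1.73 (SE 0.29, adjusted p = 6.32e-05). Leaving out the mouse block gave 1.63 (adjusted p = 0.0668).

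Tgfa fell with U46619. Its level was 0.564, 13.8 and 21.9 FPM in the lowest, median and highest control and 0.0550, 8.31 and 13.6 FPM with U46619. Mouse 2 was the lowest in both groups, and Tgfa was near absent in all its cultures, at 0.0550 to 1.13 FPM. The U46619 culture was below the control in 6 of 6 mice (mean difference −0.76 ± 0.40). The log2-fold change was −0.88 (SE 0.28, adjusted p = 0.0157), and without mouse 1, which went from 21.9 to 7.83 FPM, it was −0.67 with an adjusted p of 0.0505. Without the mouse block it was −0.79 (adjusted p = 0.633).

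Egf, the gene of the growth factor itself, was low throughout. The controls held 0.523, 1.12 and 2.103 FPM (lowest, median, highest) and the U46619 cultures 0.157, 0.354 and 0.602 FPM. It was lower in 6 of 6 mice (−0.91 ± 0.38), with a log2-fold change of −1.65 (SE 0.41, adjusted p = 0.00234).

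Areg and Btc were not called with U46619. Areg had between 0 and 0.428 FPM in controls and between 0 and 0.366 FPM with U46619, which are a few counts per library, and its log2-fold change was 1.08 (SE 0.74, adjusted p = 0.260). For Btc the medians were 1.80 FPM in control and 1.14 FPM with U46619, with a log2-fold change of −0.58 (SE 0.33, adjusted p = 0.173). Btc was near 0 in the cultures of mouse 1.

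**Figure D2:**
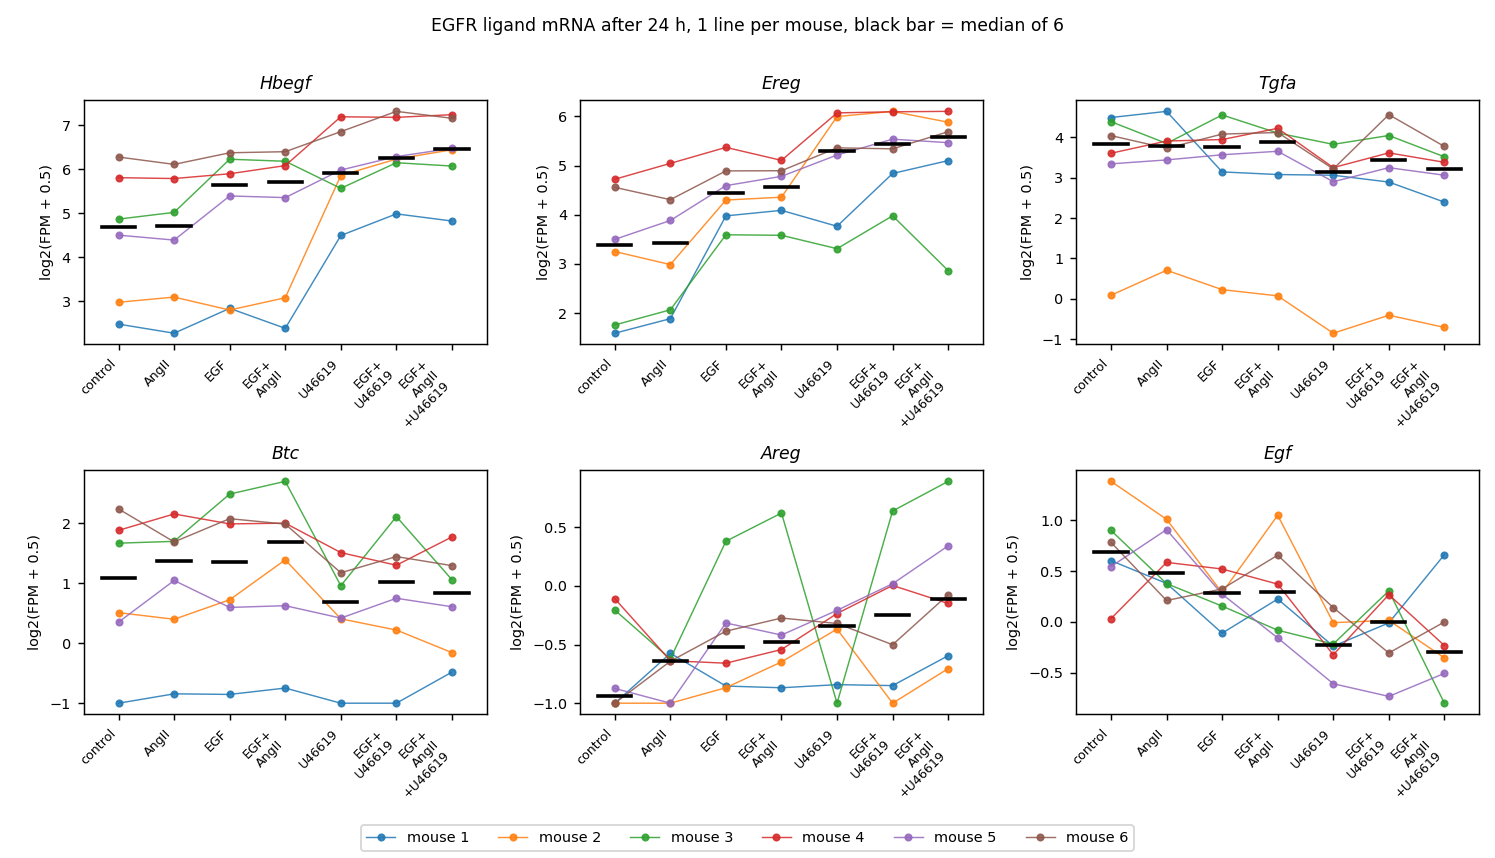
Level of the 6 tested EGFR ligands in every 24 h culture by treatment, as log2(FPM + 0.5), with the cultures of 1 mouse joined and black bars at the median of each group. For Hbegf and Ereg the U46619-containing cultures lay above their own control in every mouse, although the groups overlapped.

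EGF alone, which activates the receptor these ligands share, called none of them at 24 h, and Ereg came closest to the threshold. Over all genes 0.0341% (5 of 14653) were called and 0 of 6 ligands were, while 2594 genes and 1 ligand, Ereg, had an unadjusted p under 0.05. Ereg had 11.6, 21.4 and 40.9 FPM (lowest, median, highest) with EGF and was above its control in 6 of 6 mice, by 1.22 ± 0.76 on the log2(FPM + 0.5) scale. Its log2-fold change of 1.20 (SE 0.29) had an adjusted p of 0.0710 in edgeR, whereas DESeq2 on the same counts called it, and edgeR did so without mouse 6 (1.46, adjusted p = 0.0253). Hbegf had 6.48, 50.5 and 82.7 FPM. It was higher with EGF in 5 of 6 mice, but the difference was 1.36 in mouse 3 and 0.89 in mouse 5 against −0.18 to 0.36 in the other 4, and the log2-fold change was 0.54 (SE 0.34, adjusted p = 0.401). Mice 3 and 5 were also the mice with the highest mesothelial marker sums, at 692 to 1123 and 279 to 421 summed FPM. The other 4 mice had at most 15.5. Without mice 3 and 5 the log2-fold change of Hbegf was 0.12 (adjusted p = 0.907). Leaving out the mice with the largest differences was bound to lower it, so this value says nothing of the mesothelial markers. Their part in the Hbegf difference was not tested. The log2-fold changes of Areg (0.91, adjusted p = 0.508), Btc (0.31, adjusted p = 0.619), Tgfa (−0.11, adjusted p = 0.865) and Egf (−0.73, adjusted p = 0.312) did not pass.

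With AngII alone no change of a ligand was detected. In edgeR 0% of all genes and 0 of 6 ligands were called, 70 genes and 0 ligands had an unadjusted p under 0.05, and DESeq2 called 0 genes. Fewer genes than chance would give lay under 0.05. The fit may have been cautious, which was not tested, and 0 calls do not exclude small changes. For Hbegf the SE in the fit was 0.33, although its within-mouse log2 differences had an SD of 0.15 (n = 6). The log2-fold change was −0.05 for Hbegf, 0.13 for Ereg, 0.10 for Tgfa, −0.17 for Egf and −0.25 for Areg, each with an adjusted p of 1.00.

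EGF+AngII against control called 1 of 6 ligands, Ereg, where 3.37% of all genes were called (1.62% higher and 1.75% lower). Its log2-fold change was 1.22 (SE 0.29, adjusted p = 0.0379), beside 1.20 with EGF alone. The call was lost without mouse 1, 2, 3 or 5 (adjusted p = 0.323, 0.132, 0.0924 and 0.110) and without the mouse block (0.90, adjusted p = 0.709). The other 5 ligands were not called, with log2-fold changes of 1.22 for Areg (adjusted p = 0.277), 0.57 for Btc (adjusted p = 0.254), 0.52 for Hbegf (adjusted p = 0.343), −0.15 for Tgfa and −0.57 for Egf (adjusted p = 0.352). EGF+AngII set directly against EGF called 0% of genes and 0 of 6 ligands. In that comparison 69 genes and 0 ligands had an unadjusted p under 0.05, and DESeq2 called 0 genes. As with AngII alone, this is fewer genes than chance would give, so 0 calls do not exclude small changes.

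EGF+U46619 for 24 h raised Hbegf and Ereg and lowered Egf. Called were 3 of 6 ligands, against 40.3% of all genes. Hbegf and Ereg were higher (19.1% of all genes) and Egf was lower (21.1% of all genes), and the median log2-fold change was 0.59 over the ligands and −0.05 over all genes. Hbegf had 31.3, 76.4 and 159.3 FPM in the lowest, median and highest culture, with a log2-fold change of 1.93 (SE 0.35, adjusted p = 5.98e-05). Without the mouse block this was 1.51 (adjusted p = 0.149). Ereg had 15.3, 43.0 and 68.2 FPM and a log2-fold change of 2.08 (SE 0.30, adjusted p = 3.63e-06). Egf fell by 1.29 on the log2 scale (SE 0.40, adjusted p = 0.00963), and without mouse 2 it fell by 1.12 (adjusted p = 0.0626). Tgfa, which was called lower with U46619 alone, had a log2-fold change of −0.37 (adjusted p = 0.305) with both substances. Areg (1.39, adjusted p = 0.105) and Btc (−0.21, adjusted p = 0.633) did not pass.

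With all 3 substances, 5 of 6 ligands were called, where 42.3% of all genes were. Hbegf (1.96, adjusted p = 3.87e-05), Ereg (1.99, adjusted p = 4.37e-06) and Areg (1.97, SE 0.68, adjusted p = 0.0195) were higher (20.2% of all genes), and Tgfa (−0.86, adjusted p = 0.0146) and Egf (−1.48, adjusted p = 0.00407) were lower (22.1% of all genes). The median log2-fold change was 0.81 over the ligands and −0.04 over all genes. Areg, the amphiregulin gene, had 0.113, 0.426 and 1.36 FPM (lowest, median, highest) against 0, 0.0228 and 0.428 FPM in control, and was called in no other comparison. The highest Areg culture came from mouse 3. The Areg call was lost without mouse 5 (1.63, adjusted p = 0.0987) or without mouse 6 (1.75, adjusted p = 0.0675), and that of Tgfa without mouse 1 (−0.53, adjusted p = 0.103). Without the mouse block the calls of Hbegf (1.52, adjusted p = 0.134), Areg (1.88, adjusted p = 0.175) and Tgfa (−0.78, adjusted p = 0.573) were lost.

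The design allows the 2 substances to be taken apart. Added to EGF, U46619 called 2 of 6 ligands (16.1% of all genes), and both were higher (7.73% of all genes, with 8.35% lower). Hbegf rose by 1.39 (SE 0.34, adjusted p = 0.00522) and Ereg by 0.88 (SE 0.28, adjusted p = 0.0294) on the log2 scale. The call of Ereg was lost without mouse 2 (0.69, adjusted p = 0.158), 4 (0.90, adjusted p = 0.0796) or 5 (0.86, adjusted p = 0.124), and without the mouse block both calls were lost (adjusted p = 0.619 for Hbegf and 0.561 for Ereg). Added to U46619, EGF called 0% of genes and 0 of 6 ligands. There, 400 genes and 0 ligands had an unadjusted p under 0.05, and DESeq2 called 2 genes. Chance would give more genes under 0.05. The fit may have been cautious here too, and the absence of edgeR calls does not exclude small changes. The log2-fold change was 0.36 for Hbegf, with an interval of −0.30 to 1.03 (2 SE on either side), and 0.35 for Ereg (−0.21 to 0.91). Within a mouse, EGF+U46619 was above U46619 in 5 of 6 mice for Hbegf (0.37 ± 0.21) and in 5 of 6 for Ereg (0.36 ± 0.43) on the log2(FPM + 0.5) scale. For Hbegf the SE in the fit was 0.33, larger than this within-mouse SD of 0.21. The test of the interaction of EGF and U46619 was limited in the same way. It also called 0% of genes and 0 of 6 ligands, with 461 genes and 1 ligand at an unadjusted p under 0.05 and 0 genes called by DESeq2. That ligand was Ereg (−0.84, SE 0.40, unadjusted p = 0.0423, adjusted p = 1.00). In 6 of 6 mice the Ereg difference with EGF+U46619 was smaller than the sum of the differences with EGF and with U46619, by 0.86 ± 0.35 on the log2(FPM + 0.5) scale. Tgfa and Egf lay above the sum in 6 of 6 mice (0.50 ± 0.58 and 0.60 ± 0.57) and Hbegf on either side of it, in 3 mice each (−0.07 ± 0.53).

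Summed per kb over the 7 ligands, the median level was 9.94 FPM in the 24 h controls (4.19 to 25.1) and 10.1 with AngII (4.03 to 22.6). It was 20.1 with EGF (6.45 to 27.9) and 19.99 with EGF+AngII (6.35 to 28.2), ranges close to that of the controls. With U46619 it was 25.6 (9.03 to 48.7), with EGF+U46619 30.9 (14.4 to 49.1) and with all 3 substances 31.7 (15.0 to 50.4). Hbegf made up a median of 52.9% of that sum in control (20.4 to 63.7%) and 58.7% with U46619 (43.0 to 67.2%), while the share of Tgfa was 13.1% in control and 4.17% with U46619. These shares are a description of transcripts and were not tested.

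After 48 h no ligand was called in any comparison in the edgeR fit of all libraries of both batches with culture set as block. Some fits that left out libraries did call ligands, as given below. With U46619, 0 of 6 ligands were called while 12.1% of all 15796 tested genes were (5.92% higher, 6.19% lower). 1 ligand, Btc, had an unadjusted p under 0.05, and DESeq2 called 0 ligands. The median log2-fold change was −0.11 over the ligands and −0.02 over all genes. In sets 1 to 5 of the EGF/U46619 batch, Hbegf had 65.2, 20.5, 32.2, 70.2 and 36.3 FPM in control and 101.03, 26.1, 46.1, 61.7 and 41.9 FPM with U46619. It was higher in 4 of 5 sets and lower in set 4, by 0.30 ± 0.32 on average on the log2(FPM + 0.5) scale. Ereg had 15.1, 7.38, 9.75, 18.4 and 18.1 FPM in control and 14.0, 8.74, 16.6, 22.5 and 19.0 FPM with U46619, with a rise in 4 of 5 sets (0.24 ± 0.31).

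The edgeR log2-fold changes with U46619 at 48 h were 0.14 for Hbegf (SE 0.25, adjusted p = 0.784) and 0.08 for Ereg (SE 0.17, adjusted p = 0.809), and within the EGF/U46619 batch alone 0.30 (adjusted p = 0.0850) and 0.23 (adjusted p = 0.192). Without the control that stood apart they were 0.28 (adjusted p = 0.132) and 0.10 (adjusted p = 0.722). Btc had −0.63 (SE 0.25, adjusted p = 0.103) with 3 of 5 sets lower and a within-set mean of −0.29 ± 0.55, Tgfa had −0.31 (adjusted p = 0.236), Egf −0.48 (adjusted p = 0.349) and Areg 0.08 (adjusted p = 0.936).

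EGF+U46619 at 48 h called 16.9% of all genes (7.95% higher, 9% lower) and 0 of 6 ligands, with 2 ligands, Ereg and Areg, at an unadjusted p under 0.05 and 0 called by DESeq2. In sets 1 to 5, Hbegf had 106, 30.4, 55.3, 68.2 and 32.6 FPM, and Ereg 17.7, 11.9, 24.0, 27.5 and 18.3 FPM. Ereg was above its control in 5 of 5 sets (0.55 ± 0.47) and Hbegf in 3 of 5 (0.37 ± 0.43). Areg had 0.337, 0.354, 0.386, 0.254 and 0.877 FPM, against 0.0777, 0, 0.143, 0.0449 and 0.648 FPM in the controls, and was higher in 5 of 5 sets by 0.50 ± 0.18. The log2-fold change in edgeR was 0.41 for Ereg (SE 0.17, adjusted p = 0.104), 0.99 for Areg (SE 0.44, adjusted p = 0.125) and 0.21 for Hbegf (adjusted p = 0.617). Within the EGF/U46619 batch alone both Ereg (0.56, adjusted p = 0.00336) and Hbegf (0.38, adjusted p = 0.0270) were called, and without the control that stood apart Hbegf was called (0.36, adjusted p = 0.0414). Ereg was also called without set 6 of the EGF/AngII batch (0.48, adjusted p = 0.0175).

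EGF+U46619 against EGF at 48 h called 14.5% of all genes and 0 of 6 ligands, with 2 ligands, Tgfa and Areg, at an unadjusted p under 0.05. Tgfa was called lower within the EGF/U46619 batch (−0.44, adjusted p = 0.0339) and without the control that stood apart (−0.40, adjusted p = 0.0247), and Areg was called higher without set 5 of the EGF/U46619 batch (1.45, adjusted p = 0.0399). EGF+U46619 against U46619 called 0% of genes and 0 of 6 ligands (332 genes and 1 ligand, Btc, at an unadjusted p under 0.05, 1 gene by DESeq2). Btc had a log2-fold change of 0.57 there (SE 0.26, adjusted p = 1.00) and was higher in 5 of 5 sets. The interaction called 0% of genes and 0 of 6 ligands at 48 h (207 genes and 0 ligands at an unadjusted p under 0.05, 0 genes by DESeq2). For EGF+U46619 against U46619 and for the interaction, fewer genes than chance would give lay under 0.05. The 0 calls there do not exclude small changes.

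EGF alone at 48 h called 0% of genes and 0 of 6 ligands (774 genes and 0 ligands at an unadjusted p under 0.05, 0 genes by DESeq2), with log2-fold changes of −0.26 for Hbegf and 0.18 for Ereg (adjusted p = 0.977 for each). Without the control that stood apart these were 0.02 (adjusted p = 0.995) and 0.22 (adjusted p = 0.735). The batches gave different values. Ereg was above control in 5 of 5 sets of the EGF/U46619 batch (0.47 ± 0.28) and at −0.12 ± 0.66 in the EGF/AngII batch (−0.09 ± 0.76 without set 4). Areg was higher in 5 of 5 sets of the former (0.27 ± 0.26) and lower in 5 of 5 sets of the latter (−0.21 ± 0.14, and −0.24 ± 0.14 in the 4 sets without set 4), a contrast that was not tested. It rests on few counts per library. The median Areg counts in control and with EGF were 2 and 5 in the EGF/U46619 batch and 7 and 3 in the EGF/AngII batch. In set 4 of the EGF/AngII batch, whose control stood apart, Hbegf had 126 FPM in that control and 26.3, 39.1 and 24.9 FPM in its EGF, AngII and EGF+AngII cultures.

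AngII at 48 h called 0% of genes and 0 of 6 ligands, with 606 genes and 1 ligand at an unadjusted p under 0.05 and 0 genes by DESeq2. That ligand was Areg, with a log2-fold change of 0.84 (SE 0.39, adjusted p = 1.00), and 0.92 (adjusted p = 0.878) without the control that stood apart. Hbegf with AngII was at −0.04 (adjusted p = 1.00) and without that control at 0.39 (adjusted p = 0.835). EGF+AngII at 48 h also called 0% of genes and 0 of 6 ligands (544 genes and 0 ligands at an unadjusted p under 0.05, 0 genes by DESeq2). For AngII and EGF+AngII, fewer genes than chance would give lay under 0.05, so 0 calls do not exclude small changes. Areg was highest in set 6 of the EGF/AngII batch, at 3.03 to 5.75 FPM in its 4 cultures, and this set also had the highest mesothelial marker sum of the 48 h sets (440 to 699 FPM). The fibroblast marker sum of set 6 was also the highest of the 48 h sets (1878 to 2687 FPM). Its smooth muscle sum was the lowest (338 to 631 FPM). The part of any of these cell types in the Areg level was not tested.

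**Figure D3:**
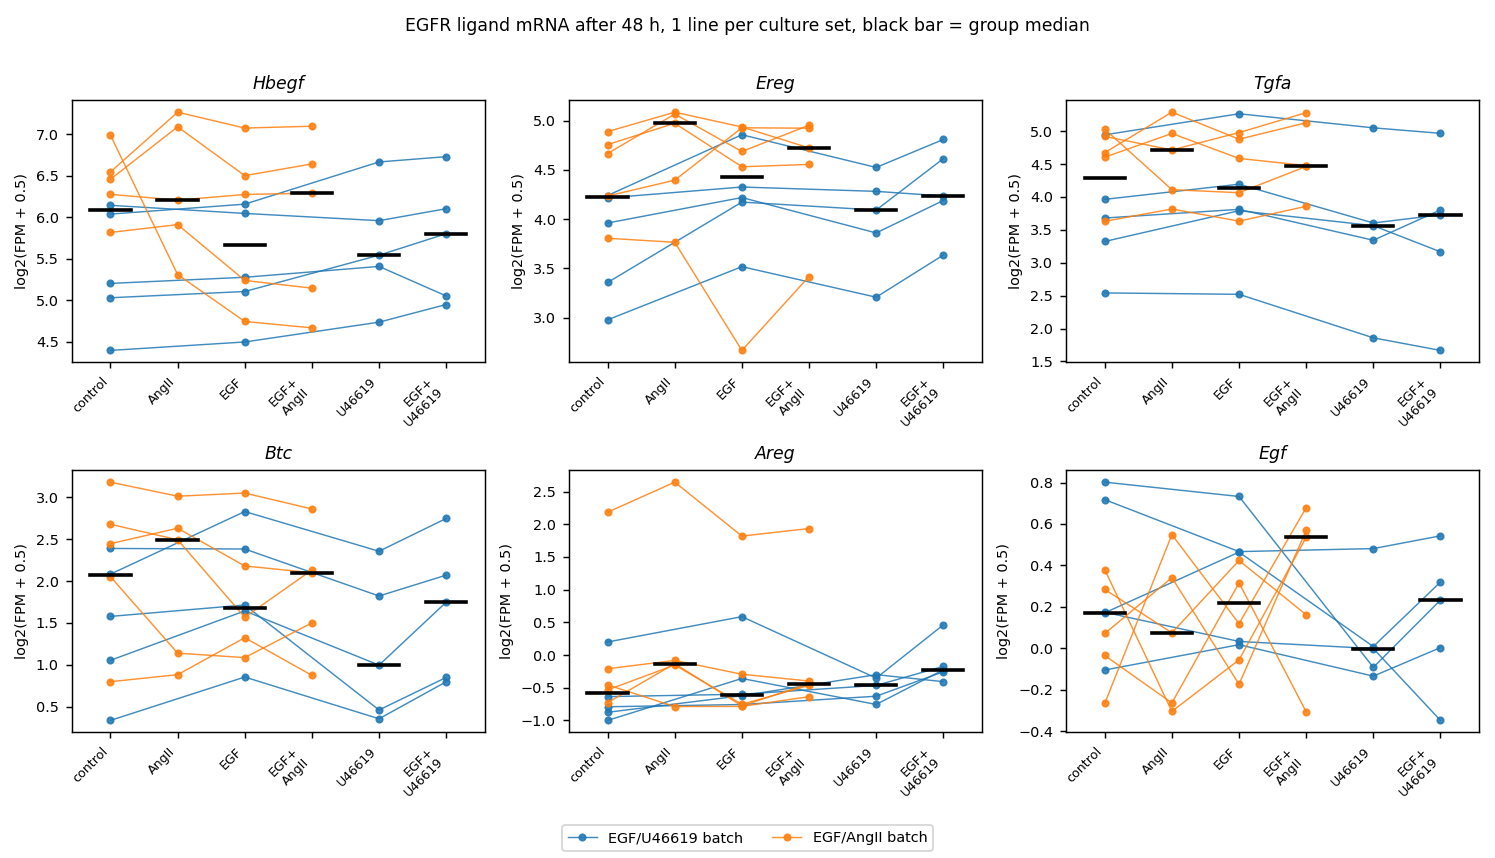
Level of the 6 tested EGFR ligands in every 48 h culture by treatment, as log2(FPM + 0.5), with the cultures of 1 set joined, colour for the batch and black bars at the median of each group. With all libraries of both batches fitted together no ligand was called against control. The control of set 4 of the EGF/AngII batch lay far above its set for Hbegf (126 FPM).

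The effects at the 2 times were set against each other in 1 fit of all 82 libraries. The EGF+U46619 effect on Ereg was larger at 24 h than at 48 h by 1.67 on the log2 scale (SE 0.36, adjusted p = 0.00753) and that on Hbegf by 1.71 (SE 0.45, adjusted p = 0.0179), where 6.58% of all genes differed. For U46619 alone, where 2.51% of all genes differed, the difference was called for Ereg (1.65, SE 0.36, adjusted p = 0.0124) but not for Hbegf (1.43, SE 0.45, adjusted p = 0.0607). For EGF alone, 0.00629% of genes were called and 0 of the ligands, with 1.01 for Ereg (adjusted p = 0.259) and 0.80 for Hbegf (adjusted p = 0.375, unadjusted p = 0.0457), which was 0.52 (adjusted p = 0.513) without the control that stood apart. With U46619, the Ereg difference was not called without mouse 2 at 24 h (1.37, adjusted p = 0.0615), without set 4 or 5 of the EGF/U46619 batch (adjusted p = 0.0758 and 0.0514), or within that batch and the 24 h libraries alone, and the Hbegf difference was called without mouse 3 (1.57, adjusted p = 0.0224) or 6 (1.66, adjusted p = 0.0227). With EGF+U46619, the Hbegf difference was not called without mouse 1 or 2 or without set 4 or 5 (1.40 to 1.63, adjusted p = 0.0511 to 0.0876). Without the set block none of these 3 differences was called (adjusted p = 0.308 to 0.477). The 24 h and 48 h libraries are different sequencing batches from different cultures, so time and batch cannot be told apart. The summed level per kb of the ligands in untreated cells had a median of 9.94 FPM in the 24 h and 21.7 FPM in the 48 h controls. The ranges overlapped (4.19 to 25.1 and 7.98 to 38.7 FPM), and the 2 times were scaled apart. The 48 h controls pool 2 batches that differed as well. Their mean Hbegf was 44.9 FPM in the EGF/U46619 batch, which alone held U46619 cultures at 48 h, and 87.9 FPM in the EGF/AngII batch.

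**Figure D4:**
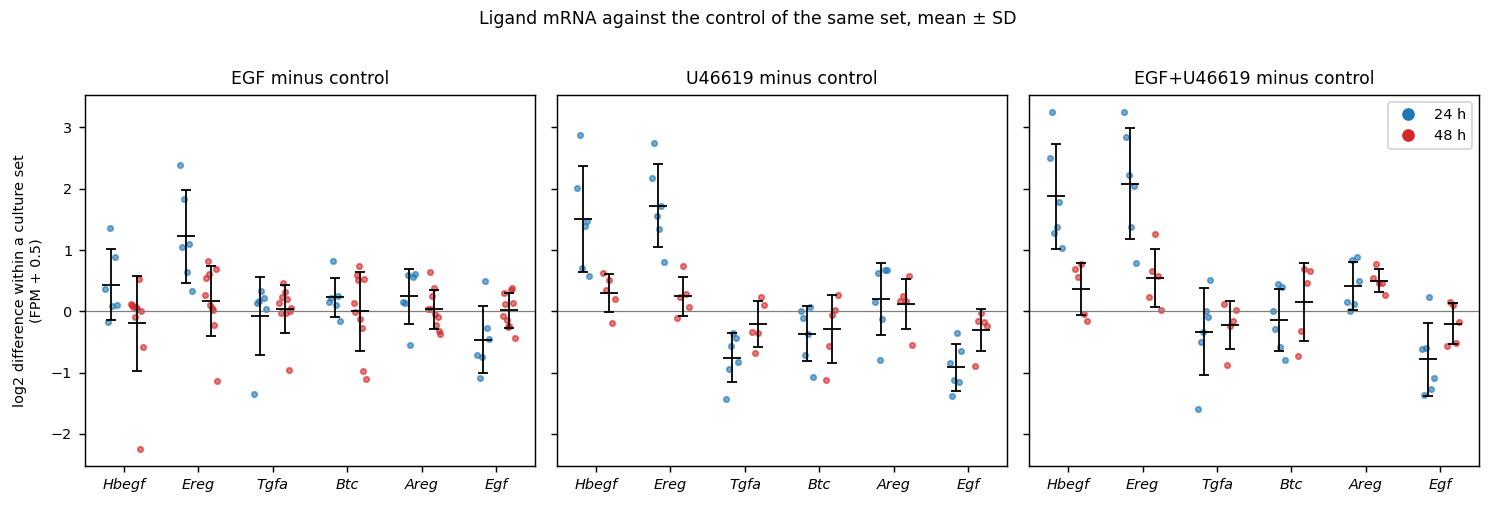
Within-set log2 difference from the control of the same mouse or set, on the log2(FPM + 0.5) scale, for 6 ligands with EGF, U46619 and EGF+U46619 at 24 h and 48 h. Points are culture sets, black dashes the mean and whiskers ± SD. For U46619 the means at 24 h were 1.51 for Hbegf and 1.72 for Ereg, against 0.30 and 0.24 at 48 h.

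The other genes of the pathway were followed with a list of 28 receptors, sheddases and their partners, other ErbB ligands, trafficking factors and receptor inhibitors. Of these 3 (Adam10, Nrg4, Cbl) were listed at 0, and 23 were tested at 24 h and 24 at 48 h. With U46619 for 24 h 9 of 23 were called, 6 higher and 3 lower, beside the 33.7% of all genes given above, and 3 (Adam9, Nkd2 and Tmed2) were called without mouse 2. With EGF+U46619 10 were called (6 higher, 4 lower, beside 40.3% of all genes), with all 3 substances 11 (6 higher, 5 lower, beside 42.3%), with EGF+AngII 1 (beside 3.37%) and with U46619 added to EGF 2 (beside 16.1%). Without the mouse block the counts with U46619 and EGF+U46619 were 0 and 2. At 48 h U46619 called 5 of 24 (4 higher, 1 lower, and 1 in all without set 3 or without set 4 of the EGF/U46619 batch, namely Adam19), EGF+U46619 called 6 (4 higher, 2 lower) and U46619 added to EGF called 7, beside 12.1%, 16.9% and 14.5% of all genes. Without the set block the first of these counts was 0 and the second 1.

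The receptor gene Egfr was not called. It had 20.2, 145 and 227 FPM in the lowest, median and highest 24 h control, and its log2-fold change with U46619 was −0.24 (SE 0.23, adjusted p = 0.445) at 24 h and 0.04 (adjusted p = 0.926) at 48 h. Adam17, the main sheddase of several of these ligands, was not called either (0.02, adjusted p = 0.959 at 24 h, and −0.08, adjusted p = 0.677 at 48 h).

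Other members of the ADAM protease family moved in both directions. Adam9 rose with U46619 at 24 h from a median of 229 to 433 FPM (log2-fold change 1.10, adjusted p = 0.00184) and Adam19 from 83.1 to 115 FPM (0.72, adjusted p = 0.0152), whereas Adam15 fell from 147.6 to 108.0 FPM (−0.44, adjusted p = 0.0171). At 48 h Adam19 was again higher (0.62, adjusted p = 0.00650) and Adam15 lower (−0.26, adjusted p = 0.0314), while Adam9 was at 0.31 (adjusted p = 0.193). The Adam15 call at 24 h was lost without mouse 1, 2 or 6 (adjusted p = 0.0532, 0.0635 and 0.0571) and that of Adam19 without mouse 2 or 5 (adjusted p = 0.0790 and 0.104). At 48 h the Adam15 call was lost without set 2, 3, 4 or 5 of the EGF/U46619 batch (adjusted p = 0.0660 to 0.151). Frmd8, which encodes a partner of the rhomboid-like proteins that stabilize ADAM17, was called at 48 h (0.29, adjusted p = 0.0211, and 0.0657 to 0.119 without set 1, 2, 3 or 4 of that batch) and not at 24 h (0.02, adjusted p = 0.925).

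Nkd2, which encodes a protein that carries TGF-alpha vesicles to the cell surface, rose with U46619 at 24 h from a median of 19.6 to 43.2 FPM (1.35, adjusted p = 6.99e-06) and was at 0.77 at 48 h (adjusted p = 0.0620). Tmed2, a cargo receptor of the early secretory pathway, was higher by 0.40 at 24 h (adjusted p = 0.00136). Of the genes that restrain the receptor, Errfi1, an intracellular EGFR inhibitor that is itself induced by EGFR signals, rose by 1.05 at 24 h (adjusted p = 0.00616) and by 1.00 at 48 h (adjusted p = 0.0156), and with EGF+U46619 by 1.504 (adjusted p = 0.000178) and 1.436 (adjusted p = 0.000514). Its calls with U46619 were lost without mouse 2 at 24 h (0.82, adjusted p = 0.0607) and without set 2, 3 or 4 of the EGF/U46619 batch at 48 h (0.87 to 0.92, adjusted p = 0.0763 to 0.0947). Lrig1, a membrane protein that promotes loss of ErbB receptors, was the 1 list gene called with EGF+AngII at 24 h (0.88, adjusted p = 0.0479). That call was lost without mouse 1, 2, 3 or 5, without the mouse block, with only the groups compared and with DESeq2's size factors (adjusted p = 0.0503 to 0.323). Lrig1 rose with U46619 at 48 h (0.56, adjusted p = 0.00984), and this call was lost without set 3 or 4 (adjusted p = 0.0844 and 0.0721).

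**Figure D5:**
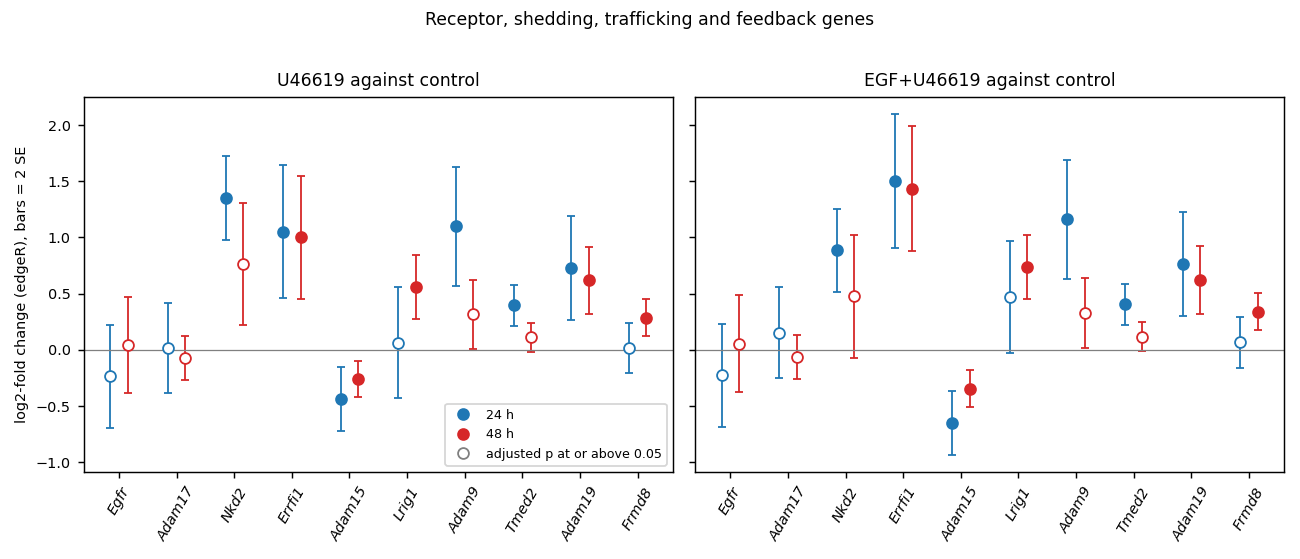
edgeR log2-fold change of the named pathway genes against control with U46619 and EGF+U46619 at 24 h and 48 h. Bars are 2 SE on either side and open circles were not called. Errfi1 was higher in all 4 comparisons shown (1.00 to 1.504), while Egfr and Adam17 stayed within 0.24 of 0.

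The genes whose 24 h pattern was most like that of each ligand were found by Pearson's r over the 42 libraries of 24 h, after the mean of each mouse was subtracted, among 10162 genes with a mean of at least 5 FPM. These r describe libraries that share treatments and mice and carry no test. For Hbegf they were Plaur, Tnfrsf12a and Ptgs2 (r = 0.97 each). Ereg was most like Ppat (0.97), Gm49336 (0.97) and D10Wsu102e (0.96), and Tgfa most like C77080 (0.88), Ltbp3 (0.86) and Pnpla6 (0.84). For the low members they were Krt8 (0.79), Mmd (0.74) and Tnfrsf23 (0.69) for Areg, Trps1 (0.71), Lgals8 (0.70) and Btbd3 (0.69) for Btc, and Trp53inp1 (0.86), Akap7 (0.84) and Gm12258 (0.84) for Egf. Among the ligands, Hbegf and Ereg varied together (r = 0.85), and both varied against Tgfa (−0.61 and −0.70) and Egf (−0.66 and −0.62). Within the chromosome 5 cluster r was 0.43 between the neighbours Ereg and Areg, 0.09 between the neighbours Areg and Btc and −0.09 between Ereg and Btc, where Areg rests on few counts per library.

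The marker lists are given beside the ligand changes for U46619 against control, with differences of the summed level within a mouse and no test. The summed level of the 6 smooth muscle markers with counts was 1255 to 5377 FPM in the 24 h controls and 4423 to 15176 FPM with U46619, higher in 6 of 6 mice by 1.89 ± 0.75 on the log2 scale. That of the fibroblast markers was 445 to 3079 and 162.99 to 1879 FPM, lower in 6 of 6 (−1.05 ± 0.75). Endothelial markers ran from 4.37 to 1529 and from 2.59 to 1325 FPM, lower in 5 of 6 (−0.27 ± 0.30), and the mesothelial and epithelial list had medians of 5.64 and 11.7 FPM, higher in 5 of 6 (0.88 ± 0.72). The leukocyte list was higher in 5 of 6 (0.48 ± 0.59), but only 1 of its 4 markers had counts in the controls and 2 with U46619. Its median sums were low, at 1.13 and 2.03 FPM. At 48 h the smooth muscle sum was higher with U46619 in 2 of 5 sets (−0.21 ± 0.32). The fibroblast sum was lower in 5 of 5 sets (−0.81 ± 0.64) and the endothelial sum in 4 of 5 (−0.11 ± 0.18). The mesothelial and epithelial sum (0.52 ± 0.51) and the leukocyte sum (0.85 ± 0.51, 3 of 4 markers with counts) were higher in 5 of 5. The part of any mixture of cells in the ligand changes was not tested. Without mice 3 and 5, the mice with the highest mesothelial sums, the log2-fold change with U46619 at 24 h was 1.76 for Hbegf (adjusted p = 0.00394) and 1.74 for Ereg (adjusted p = 0.00352).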

How the data were processed

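Poly(A) RNA was sequenced in paired ends. Per the labels and the methods, the authors used HISAT2 2.1.0 and the mm10 genome for alignment, counted fragments per gene over exons with featureCounts, multi-mapped reads included, and deposited raw counts in 3 tables. All columns were matched to a sample. The counts were scaled by TMM, filtered with filterByExpr and tested with edgeR's quasi-likelihood test (edgeR 4.0.16, R 4.3.3), with Benjamini-Hochberg adjustment over all tested genes and a threshold of 0.05. Each time was fitted apart, with mouse as block at 24 h and culture set at 48 h, where the labels give 5 mice for 10 sets. SE was derived from the log2-fold change and its F. Within-set differences used a pseudocount of 0.5 FPM. The culture number pairs the samples: deviations from the group means correlated above 0.1 in 126 of 126 pairs at 24 h (median 0.800) and in 57 of 60 at 48 h (median 0.823), the other 3 involving 1 library. At 24 h a number is 1 mouse. Whether 48 h cultures of a set came from 1 mouse rests on the labels.

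Named were all 7 ligands, Egfr and Adam17, at most 8 pathway genes with the smallest adjusted p among those called with U46619 or EGF+U46619, and 3 most alike genes per ligand. The members and lists were chosen with earlier results of these data known. The test was also run on simulated counts, and the outcome of that run is not given here. DESeq2 1.42.0, other scalings, filters, blocks and left-out libraries were the alternatives. The comparison between times and the omission of mice 3 and 5, of 1 control library, of set 4 of the EGF/AngII batch and of the highest Areg control were added after seeing the data. Protein features were not analysed here.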

Additional observations from a re-analysis of the deposited data

Results flagged for a closer look

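Of 66 sets of within-set differences checked for a culture far from the rest (Dixon's test at the 95% level, which chance passes in about 1 of 20 groups), 6 held one. At 24 h both lay in mouse 1 and concerned Tgfa. The log2 difference from control with EGF was −1.35 there against 0.038 to 0.338 in the other 5 mice, and with all 3 substances it was −2.09 against −0.868 to −0.224. The Tgfa control of mouse 1 had 21.9 FPM, the highest of the 6 controls.

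At 48 h, 2 of the 4 lay in set 4 of the EGF/AngII batch, whose control library stood apart. Hbegf with EGF differed there from control by −2.24, against −0.579 to 0.528 in the other 9 sets, and Tgfa by −0.96, against −0.021 to 0.467. Ereg with EGF was at −1.14 in set 6 of the same batch, against −0.225 to 0.816 elsewhere. Egf with U46619 was at −0.89 in set 1 of the EGF/U46619 batch, against −0.236 to −0.030 in the other 4 sets.

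In the fit of all 82 libraries, 3 effects differed between the times. The effect at 24 h minus that at 48 h was 1.65 on the log2 scale for Ereg with U46619, 1.67 for Ereg with EGF+U46619 and 1.71 for Hbegf with EGF+U46619. Time and sequencing batch cannot be told apart here.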

How the results depend on the processing

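No called ligand changed sign under any alternative that was run. Of 192 values of called ligands under alternatives, 35 were no longer called, and of 1463 values of uncalled ligands 13 were called and 99 changed sign without a call. Of 198 levels recomputed with other scalings or pseudocounts, 191 moved by less than 1 SD and 7 by more. The mouse or set block mattered most. Without the replicate block the number of called ligands at 24 h went from 4 to 1 with U46619, from 1 to 0 with EGF+AngII, from 5 to 2 with all 3 substances and from 2 to 0 for EGF+U46619 against EGF, the called pathway genes from 9 to 0 with U46619 and 10 to 2 with EGF+U46619 at 24 h and from 5 to 0 and 6 to 1 at 48 h, and the ligands that differed between times from 1 (U46619) and 2 (EGF+U46619) to 0. Over all genes it went from 4939 to 1174, 5899 to 2096, 6203 to 2513, 494 to 0 and 2357 to 116 at 24 h (U46619, EGF+U46619, all 3, EGF+AngII, and EGF+U46619 against EGF) and from 1912 to 129, 2677 to 226 and 2296 to 112 at 48 h. With the labelled mouse as block, 2 and 3 pathway genes were called with U46619 and EGF+U46619 at 48 h.

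With EGF at 24 h, 1 ligand, Ereg, was called by DESeq2 and with no filter, and DESeq2 called 425 genes where edgeR called 5 (1330 against 494 with EGF+AngII). With only the groups compared in the fit, 0 ligands were called with EGF+AngII, 2 with all 3 substances, 1 for EGF+U46619 against EGF at 24 h and 1 at 48 h, and 8 pathway genes with U46619 at 48 h. Without mice 3 and 5 the counts were 0, 2 and 1 for the first 3 of these, and 2 for the time difference with U46619. Requiring a call by both tools and at least 5 FPM left 3 ligands with all 3 substances. It also removed the 24 h calls of Egf, which lies under 5 FPM, with U46619 (−1.65), EGF+U46619 (−1.29) and all 3 substances (−1.48). Within the EGF/U46619 batch, 2 ligands were called with EGF+U46619 at 48 h, 1 for EGF+U46619 against EGF and 8 pathway genes with U46619, and the time difference with U46619 was called for 0. Without the control that stood apart these 48 h counts were 1, 1 and 9. The time difference with U46619 was called for 2 ligands by DESeq2 and with no filter.

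Leaving out each replicate in turn gave 0 to 1 ligands with EGF (1 without mouse 6) and with EGF+AngII at 24 h, and 1 to 2 for EGF+U46619 against EGF (1 without mouse 2, 4 or 5). It gave 0 to 1 at 48 h with EGF+U46619 (1 without set 4 or 6 of the EGF/AngII batch) and against EGF (1 without set 4 of that batch or set 5 of the other). Pathway genes called with U46619 ranged from 3 to 9 at 24 h and 1 to 7 at 48 h, and the time differences from 0 to 2 and 1 to 2. Depth limits Areg, Egf and Epgn, which rest on few counts per library. The cause of these changes was not tested.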
